A study of Mus musculus with 4 samples.

Results

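Expression of 10 genes for Polycomb and DNA methylation enzymes was examined: Ezh2, Eed and Suz12, the core of Polycomb repressive complex 2 (PRC2), the DNA methyltransferase genes Dnmt1, Dnmt3a and Dnmt3b with the maintenance cofactor Uhrf1, and the demethylating dioxygenase genes Tet1, Tet2 and Tet3. They were chosen by gene symbol, and all 10 were found among 23284 symbols, each with a single entry. The data are 4 libraries of polyadenylated RNA from CD4 T cells taken from the spleen of BALB/c mice, with no genotype change labelled. All cells had been stimulated in Th1 culture with the cytokines interleukin-12 at 10 ng/ml and interleukin-2 at 15 ng/ml, for 4 days by one label and 5 days by another. They were then sorted into CCR7hiCD137lo cells (2 libraries), rich in a chemokine receptor that directs T cells to lymph nodes, and CCR7loCD137hi cells (2 libraries), which carry much of a receptor that T cells display after activation. The age of the mice is not given in the labels, nor whether libraries numbered 1 and 2 came from separate mice or cultures, so the spread behind the p-values is only that of these samples and may be technical.

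PRC2 places methyl groups on lysine 27 of histone H3, a mark of silenced genes, and in CD4 T cells it restrains the genes of alternative helper fates. DNMT1, guided by UHRF1 to newly copied DNA, passes methylation on to daughter strands at each division, whereas DNMT3A and DNMT3B place new methyl groups. TET proteins oxidise methylated cytosine and so start its removal. The comparison asked how the expression of these writers and erasers differed between the sorted populations, in a study concerned with the memory potential of CD4 T cells.

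Depth was estimated from the deposited values, assuming that they were scaled to each library's total of fragments. It was about 20400000 fragments in replicate 1 and 12900000 in replicate 2 of CCR7hiCD137lo, against 11500000 and 6250000 for CCR7loCD137hi. By this estimate the CCR7loCD137hi libraries were the shallower ones within each number. Ccr7 and Tnfrsf9, which encodes CD137, followed the sort in all 4 libraries. Cd3e and Cd4 were high in every library, at 180.3 FPKM or more and 95.6 FPKM or more. FPKM is the number of fragments per kilobase of transcript, scaled to the library's depth, and where a pair of values stands against another, CCR7hiCD137lo replicates 1 and 2 come first and CCR7loCD137hi replicates 1 and 2 second. Markers of other cells were uneven, and most of them were low. The 7 B cell markers summed to 0.0998 and 0.158 FPKM in CCR7hiCD137lo, where Ms4a1, Pax5 and Blk were among those listed at 0, and to 4.97 and 0.529 FPKM in CCR7loCD137hi. The 7 CD8 T and NK cell markers summed to 16.3 and 31.2 against 57.8 and 48.7 FPKM. The highest among them were Eomes, at 9.42 and 17.18 against 26.45 and 28.53 FPKM, and Klrk1, at 4.29 and 9.375 against 16.47 and 15.49 FPKM. Cd8b1 was at 2.63 and 4.555 against 8.48 and 3.78 FPKM, and Cd8a at 0 and 0.0265 against 3.68 and 0.218 FPKM. The 11 myeloid and dendritic markers found summed to 0.794 to 3.99 FPKM, with Csf1r, Flt3, S100a8 and S100a9 listed at 0 in every library. Most of each sum was Cd68, at 1.505 and 0.668 against 2.345 and 3.143 FPKM. It was higher in CCR7loCD137hi without overlap (limma adjusted p = 0.588). The 8 erythroid and platelet markers summed to 0.415 to 2.53 FPKM. The highest B cell sum and Cd8a value were both in CCR7loCD137hi replicate 1, and without that library 8 of 10 members kept the sign of their difference. Leaving that library out does not test the part of other cells. CCR7loCD137hi replicate 2 also exceeded both CCR7hiCD137lo libraries in each of these sums. Most of its CD8 T and NK cell sum was Eomes and Klrk1, while its Cd8b1 lay between the values of the CCR7hiCD137lo libraries. Which cells expressed Eomes and Klrk1 was not tested. The part of other cells in the results was not tested. In bulk RNA, fewer cells that express a gene and less RNA per cell cannot be told apart.

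The 10 genes ranged from a mean of 1.05 to one of 99.0 FPKM, and the machinery of copying methylation was the most expressed. Dnmt1 and Uhrf1 led, with means over the 4 libraries of 99.0 and 93.8 FPKM, above 93.2% and 92.6% of the 10496 genes tested. Ezh2, the PRC2 catalytic subunit, followed at 78.0 FPKM, and its partners Suz12 and Eed stood at 53.2 and 50.1 FPKM. Tet3, Tet2 and Dnmt3a formed a lower tier, at 11.2, 8.58 and 7.67 FPKM. Dnmt3b was at 2.49 FPKM and Tet1 at 1.05 FPKM, the latter just above the minimum mean of 1 FPKM used for testing. Neighbours in this order could not always be separated. Dnmt1 exceeded Uhrf1 in 3 of 4 libraries, Suz12 exceeded Eed in 2 of 4, Tet3 exceeded Tet2 in 3 of 4 and Tet2 exceeded Dnmt3a in 3 of 4, each with overlapping ranges. Ezh2 lay above Suz12, Eed above Tet3, Dnmt3a above Dnmt3b and Dnmt3b above Tet1 in 4 of 4 libraries with ranges that did not overlap.

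**Figure D1:**
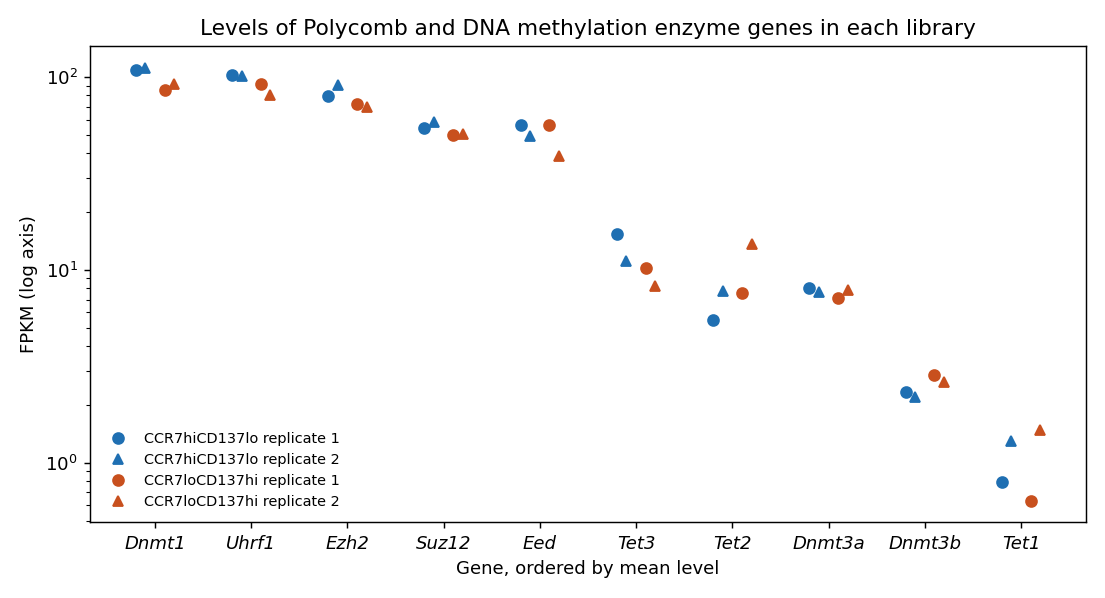
FPKM (log axis) of the 10 genes in each library, ordered by mean level, with blue for CCR7hiCD137lo and orange for CCR7loCD137hi, circles for replicate 1 and triangles for replicate 2. The orange points of Dnmt1 (84.96 and 91.7 FPKM) lie below the blue ones (108.0 and 111.5 FPKM), while those of Tet2 lie above the blue point of the same number.

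None of the 10 members passed limma's test over all genes, a linear model with moderated variances and Benjamini-Hochberg adjustment at 0.05, which called 0.0572% of genes (0.0476% as higher and 0.00953% as lower in CCR7loCD137hi). Before adjustment, 1 member, Dnmt1, had a p under 0.05, against 8.13% of all genes, and 3.49% in the same direction. In limma with other settings Dnmt1 had a p of 0.058 with a minimum of 5 FPKM, 0.0545 with quantile normalization and 0.076 without a variance trend. The p was 0.0487 with a pseudocount of 0.1, 0.0161 without a filter on low values and 0.0468 with median-ratio scaling. It was 0.0253 without short RNA genes and 0.0157 with a replicate block. With a library left out the log2 fold change of Dnmt1 ran from -0.37 to -0.26. Both CCR7loCD137hi libraries lay below both CCR7hiCD137lo libraries for 5 members (Ezh2, Suz12, Dnmt1, Uhrf1 and Tet3), where 21.5% of all genes did so, and above them for 1, Dnmt3b, against 16.6% of genes. The fitted log2 fold change was below 0 for 8 of 10 members and for 52.1% of genes, with medians of -0.16 over the members and -0.01 over all genes. Log2 fold changes refer to FPKM + 1 and are positive where CCR7loCD137hi was higher. With 2 against 2 libraries an exact two-sided permutation test cannot give a p under 0.333, so none is given.

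Ezh2 and Suz12 stood lower in both CCR7loCD137hi libraries, at folds of 0.840 and 0.897, and Eed varied within that population. Ezh2, which encodes the methyltransferase itself (mm10 chromosome 6, 47530274 to 47595030, minus strand), was at 79.8 FPKM in replicate 1 and 90.1 FPKM in replicate 2 of CCR7hiCD137lo, against 72.2 and 69.9 FPKM for CCR7loCD137hi in the same order. The groups did not overlap, and the lowest value was that of CCR7loCD137hi replicate 2. The fitted log2 fold change was -0.25 (SE 0.125, 95% interval -0.58 to 0.079, limma adjusted p = 0.704). Suz12 (chromosome 11, 79993106 to 80034123, plus strand), a subunit needed for the complex to hold together and act, was at 53.9 and 58.3 FPKM against 49.8 and 50.6 FPKM. Its groups did not overlap either, and the fitted value was -0.16 (SE 0.118, 95% interval -0.47 to 0.157, limma adjusted p = 0.783). Eed (chromosome 7, 89954654 to 89980976, minus strand), the subunit that binds the finished mark, was at 56.3 and 49.2 FPKM against 55.98 and 38.9 FPKM. The libraries numbered 1 were almost level, and CCR7loCD137hi replicate 2 was the lowest of the 4. The fitted value was -0.17 (SE 0.214, limma adjusted p = 0.872), and 0.087 without that library. The SDs of Eed were 4.97 FPKM in CCR7hiCD137lo and 12.1 FPKM in CCR7loCD137hi (n = 2 each). An exon of Eed overlaps 261 nt of E230029C05Rik on the other strand, and exons of Ezh2 and Suz12 overlap 174 and 178 nt of long noncoding genes on the opposite strand, whose reads cannot be told apart if strand was not used in counting.

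Ezh1, the paralog of Ezh2 that is typical of resting cells, was at 5.97 and 9.54 FPKM among CCR7hiCD137lo cells, against 5.97 and 10.9 FPKM among CCR7loCD137hi cells. Its level followed the replicate number in both populations, and not the sort. Ezh2 therefore exceeded Ezh1 by 13.4 and 9.44 times in CCR7hiCD137lo and by 12.1 and 6.43 times in CCR7loCD137hi, ranges that overlap. Among all 8 accessory or alternative PRC2 subunits tested, 0 were called, 5 were fitted above 0 and 3 below, with a median of 0.066 that was -0.098 without CCR7hiCD137lo replicate 1 and -0.086 without CCR7loCD137hi replicate 2. The most expressed, the histone-binding subunit Rbbp7, was at 211.0 and 147.1 against 170.3 and 104.2 FPKM. Aebp2, an accessory DNA-binding subunit, was at 80.7 and 99.5 against 89.4 and 102.7 FPKM. Jarid2, which helps recruit PRC2 to chromatin and was picked once its values were known, was at 7.11 and 15.9 FPKM among CCR7hiCD137lo cells, against 19.3 and 19.4 FPKM among CCR7loCD137hi cells. Both CCR7loCD137hi libraries were higher, but the SD within CCR7hiCD137lo was 6.23 FPKM and limma's adjusted p was 0.687. Phf19, another accessory subunit chosen in the same way, was at 12.5 and 11.8 against 9.80 and 8.56 FPKM (limma adjusted p = 0.614).

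The genes of PRC1, of the demethylases of the PRC2 mark and of the removal of ubiquitin from histone H2A gave no call either. PRC1 ubiquitinates histone H2A and in some forms binds the PRC2 mark. Of its 20 genes listed, 0 were called, 9 were fitted above 0 and 11 below, and the median was -0.09. It was 0.038 without CCR7loCD137hi replicate 1, -0.21 without CCR7loCD137hi replicate 2 and -0.025 without CCR7hiCD137lo replicate 2. Pcgf5 and Phc3, its most expressed members, were at 35.6 and 51.6 against 33.5 and 38.2 FPKM and at 41.2 and 38.4 against 32.6 and 39.97 FPKM. An unadjusted p under 0.05 in limma was reached by 3 of the 20 PRC1 genes, where 8.13% of all genes reached it. These 3 are named for that reason, after the fit. Rybp, of variant PRC1, stood higher in CCR7loCD137hi at 8.201 and 8.03 against 13.1 and 10.4 FPKM. Cbx6, which binds the mark, and Phc2, a scaffold subunit, stood lower, at 17.5 and 19.9 against 13.7 and 14.0 FPKM and at 36.6 and 37.4 against 30.1 and 24.6 FPKM (limma adjusted p from 0.582 to 0.608). Kdm6a, a demethylase of the PRC2 mark, was level, at 11.6 and 12.4 against 12.01 and 12.3 FPKM (log2 fold change 0.023, 95% interval -0.32 to 0.36). Kdm6b, the inducible demethylase, was at 7.13 and 11.8 FPKM against 9.60 and 16.6 FPKM. Within each number Kdm6b was higher in CCR7loCD137hi, by 0.38 and 0.46 on the log2 scale, yet the groups overlapped (limma adjusted p = 0.804). With 3 genes of the complex that removes ubiquitin from H2A, the demethylase list had 5 tested genes and 0 calls. Asxl1 and Bap1, the cofactor and the enzyme of that complex, were at 25.6 and 29.4 against 30.2 and 34.8 FPKM and at 22.1 and 23.0 against 23.5 and 20.8 FPKM, and Asxl3 was listed at 0 throughout.

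Dnmt1 and Uhrf1, the pair that copies methylation, were both lower in each CCR7loCD137hi library. Dnmt1 (chromosome 9, 20907206 to 20959888, minus strand) was at 108.0 and 111.5 FPKM among CCR7hiCD137lo cells, against 84.96 and 91.7 FPKM among CCR7loCD137hi cells. The 2 populations were separated by more than the spread within either, with SDs of 2.47 and 4.76 FPKM (n = 2 each). The log2 fold change was -0.31 (SE 0.115, 95% interval -0.62 to -0.0052), a fold of 0.806, with an unadjusted p of 0.0475 and an adjusted p of 0.613 in limma's test. Uhrf1 (chromosome 17, 56303337 to 56323486, plus strand), which recognises half-methylated DNA, was at 102.0 and 101.0 FPKM against 91.6 and 80.7 FPKM. The SD was 0.725 FPKM in CCR7hiCD137lo and 7.72 FPKM in CCR7loCD137hi (n = 2 each), whose libraries both lay below, at a fold of 0.849 (log2 fold change -0.24, SE 0.124, limma adjusted p = 0.718). Uhrf2, its paralog, was level at 22.6 and 22.3 against 23.3 and 21.3 FPKM, so the Uhrf1 to Uhrf2 ratio was 4.51 and 4.53 in CCR7hiCD137lo and 3.93 and 3.78 in CCR7loCD137hi. Dnmt1 and Uhrf1 kept a ratio near 1, at 1.06 and 1.10 against 0.927 and 1.14.

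The de novo methyltransferase genes were far less expressed than Dnmt1 and Uhrf1, and neither was called. Dnmt3a (chromosome 12, 3806980 to 3914443, plus strand) was at 8.03 and 7.62 FPKM among CCR7hiCD137lo cells, against 7.16 and 7.86 FPKM among CCR7loCD137hi cells. The groups overlapped, the libraries numbered 1 and 2 differed in opposite directions, and the log2 fold change was -0.053 (SE 0.140, 95% interval -0.42 to 0.318, limma adjusted p = 0.948). Its exons overlap 133 nt of an antisense gene, Dnmt3aos. Dnmt3b (chromosome 2, 153649454 to 153687730, plus strand) was at 2.32 and 2.19 FPKM against 2.83 and 2.61 FPKM. Here both CCR7loCD137hi libraries were higher, by 0.21 and 0.18 on the log2 scale within numbers, and the fitted value was 0.19 (SE 0.179, limma adjusted p = 0.824). These levels correspond to roughly 200, 120, 140 and 70 fragments on the longest coding transcript, in the order CCR7hiCD137lo replicates 1 and 2 and CCR7loCD137hi replicates 1 and 2, which limits the precision of each value. Dnmt3a exceeded Dnmt3b by 3.46 and 3.48 times in CCR7hiCD137lo and by 2.53 and 3.01 times in CCR7loCD137hi. Dnmt3l, the catalytically inactive partner of germ cells, was listed at 0 in all 4 libraries.

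Of 16 genes found for methyl-CpG readers, cofactors and repair of oxidised cytosine, 14 were tested and 0 called, with 5 fitted above 0, 9 below and a median of -0.04. Mbd2, a reader of methylated DNA, was at 108.6 and 105.8 FPKM among CCR7hiCD137lo cells, against 95.1 and 84.1 FPKM among CCR7loCD137hi cells, groups that did not overlap (limma adjusted p = 0.689). Gadd45g, a stress-response gene implicated in demethylation, was at 50.4 and 84.9 against 132.4 and 116.5 FPKM. Its relative Gadd45b, picked once its values were known, was at 4.19 and 4.12 against 19.8 and 13.7 FPKM. Its log2 fold change was 1.76 (SE 0.213, limma adjusted p = 0.216), larger than that of any member. Gadd45g, Gadd45b and Gadd45a (1.64 and 1.87 against 3.09 and 2.24 FPKM) stood higher in each CCR7loCD137hi library, in the opposite direction to Mbd2. Tdg, of the repair genes, had a mean under 1 FPKM and was not tested, at 1.32 and 1.09 against 0.390 and 0.497 FPKM. Gadd45a and Tdg were also picked once their values were known.

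The promoter windows of all 10 members were searched for letters typical of cell cycle genes. In RefSeq windows of GRCm38.p6 (250 bases before to 50 after a start site; 15 windows for 10 of 10 members), 3 E2F-type 8-mers were searched on both strands, TTTCCCGC, TTTGGCGC and TTTCGCGC. E2F factors drive genes of S phase. A match was found for Ezh2, Suz12, Dnmt1 and Uhrf1, that is for 40.0% of members, 4.66% of 7465 tested genes with a window and 2.12% of all 27025 genes. For comparison it was found for 38.1% of the 21 S phase genes with a window and 5.56% of the 18 such G2 and M phase genes. Genes with several windows have more places for a match. By window the shares were 26.7% for members, 3.87% for tested genes and 1.84% for all genes. They were 32.0% for S phase and 5.26% for G2 and M phase. Eed, Tet3, Dnmt3a and Tet1, also fitted below 0, held none, nor did Dnmt3b and Tet2, fitted above 0. The members' windows were richer in G and C (median 69.7%, with 30 CpG) than those of tested genes (61.0%, with 21 CpG), and the part of base composition in these shares was not tested. A match is a description and not a shown binding site, and its absence says only that these letters are not in the window. The 30 bases around each match are printed 5′ to 3′ on the gene's strand with the match in capitals, to show the letters found.

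Ezh2, chr6:47595009-47595038, minus strand: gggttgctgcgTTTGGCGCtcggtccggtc
Dnmt1, chr9:20952824-20952853, minus strand: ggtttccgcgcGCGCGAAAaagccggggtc
Dnmt1, chr9:20952574-20952603, minus strand: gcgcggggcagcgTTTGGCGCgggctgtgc
Suz12, chr11:79992876-79992905, plus strand: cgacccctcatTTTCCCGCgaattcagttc
Uhrf1, chr17:56304117-56304146, plus strand: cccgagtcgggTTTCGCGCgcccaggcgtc

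The first Dnmt1 match is read on the opposite strand. Counted from the start site, the first bases lay at 4 in Ezh2, -219 and 34 in Dnmt1, -219 in Suz12 and -185 in Uhrf1. Dnmt1 and Uhrf1 have several start sites, and the matches were in the most downstream window of each, the CpG-rich one with 33 CpG in both cases, while the farthest upstream Dnmt1 window held 2 CpG. The 250 bases upstream of Suz12 and of that Uhrf1 start site, which no annotated exon covers, are set beside those of Tet2, the member with the highest fitted value, which held 57 CpG and no match in its whole window.

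Suz12, chr11:79992856-79993105, plus strand: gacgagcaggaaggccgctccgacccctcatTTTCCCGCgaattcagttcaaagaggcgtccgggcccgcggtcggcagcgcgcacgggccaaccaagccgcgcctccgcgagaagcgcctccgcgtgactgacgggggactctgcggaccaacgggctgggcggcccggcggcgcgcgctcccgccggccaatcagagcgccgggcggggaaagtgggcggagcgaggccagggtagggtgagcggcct
Uhrf1, chr17:56304063-56304312, plus strand: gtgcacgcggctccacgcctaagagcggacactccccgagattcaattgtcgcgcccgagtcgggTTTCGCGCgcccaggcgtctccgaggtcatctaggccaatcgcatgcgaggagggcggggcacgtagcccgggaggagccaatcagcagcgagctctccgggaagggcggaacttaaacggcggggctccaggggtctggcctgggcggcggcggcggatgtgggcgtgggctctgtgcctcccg
Tet2, chr3:133544391-133544640, minus strand: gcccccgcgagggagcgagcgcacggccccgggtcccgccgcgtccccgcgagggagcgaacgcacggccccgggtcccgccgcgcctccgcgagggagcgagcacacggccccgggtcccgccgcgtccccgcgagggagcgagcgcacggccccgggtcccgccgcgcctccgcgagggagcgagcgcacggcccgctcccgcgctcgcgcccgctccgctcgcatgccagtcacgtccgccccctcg

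The Tet2 stretch is made of near-identical units, with 1 run of 25 bases occurring 3 times. CCAAT, the box bound by NF-Y, was present on either strand for 6 of 10 members, 43.6% of tested genes and 41.1% of all genes. Among the 18 G2 and M phase genes with a window it was present in 88.9%. Members without CCAAT were Dnmt3a, Dnmt3b, Tet1 and Tet2.

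The TET genes did not share a direction. Tet2 (chromosome 3, 133463677 to 133544390, minus strand), a gene often mutated in T cell lymphoma, was at 5.51 and 7.78 FPKM among CCR7hiCD137lo cells, against 7.53 and 13.5 FPKM among CCR7loCD137hi cells. Within each number the CCR7loCD137hi library was higher, by 0.39 and 0.72 on the log2 scale, but CCR7hiCD137lo replicate 2 exceeded CCR7loCD137hi replicate 1, so the groups overlapped. The fitted log2 fold change was 0.56 (SE 0.320, 95% interval -0.29 to 1.41, limma adjusted p = 0.731). It ran from 0.17 without CCR7loCD137hi replicate 2 to 0.94 without CCR7loCD137hi replicate 1. Tet3 (chromosome 6, 83362374 to 83441678, minus strand), known for demethylation in the zygote, was the reverse, at 15.3 and 11.1 FPKM against 10.2 and 8.27 FPKM, with no overlap between groups. Its fold was 0.724 (log2 fold change -0.47, SE 0.209, 95% interval -1.02 to 0.087, limma adjusted p = 0.677), and its fitted value ran from -0.26 without CCR7hiCD137lo replicate 1 to -0.68 without CCR7hiCD137lo replicate 2. Tet1 (chromosome 10, 62804570 to 62880014, minus strand), a gene of embryonic stem cells, was at 0.797 and 1.297 FPKM against 0.635 and 1.48 FPKM. It was higher in the library numbered 2 of each population and did not separate the populations (log2 fold change -0.014, SE 0.319, 95% interval -0.86 to 0.83, limma adjusted p = 0.997).

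Ratios of 2 genes within a library are free of scaling between libraries, and 12 were computed, some of them chosen after the values were seen. Tet2 to Tet3 was 0.361 and 0.698 in CCR7hiCD137lo and 0.740 and 1.63 in CCR7loCD137hi. CCR7loCD137hi replicate 2 was the single library in which Tet2 exceeded Tet3, and the gap between the groups was narrow, from 0.698 to 0.740. Tet2 to Tet1 was 6.91 and 6.0 against 11.9 and 9.15, again without overlap. Of the 12 ratios, 2 were higher, 4 lower and 6 overlapped. Several ratios share a gene, and the share of all gene pairs that separate was not computed, so these counts only describe the pairs picked. The 4 lower ones were Dnmt3a to Dnmt3b, Uhrf1 to Uhrf2, Ezh2 to Suz12 (1.48 and 1.54 against 1.45 and 1.38) and Dnmt1 to Dnmt3a (13.4 and 14.6 against 11.9 and 11.7).

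**Figure D2:**
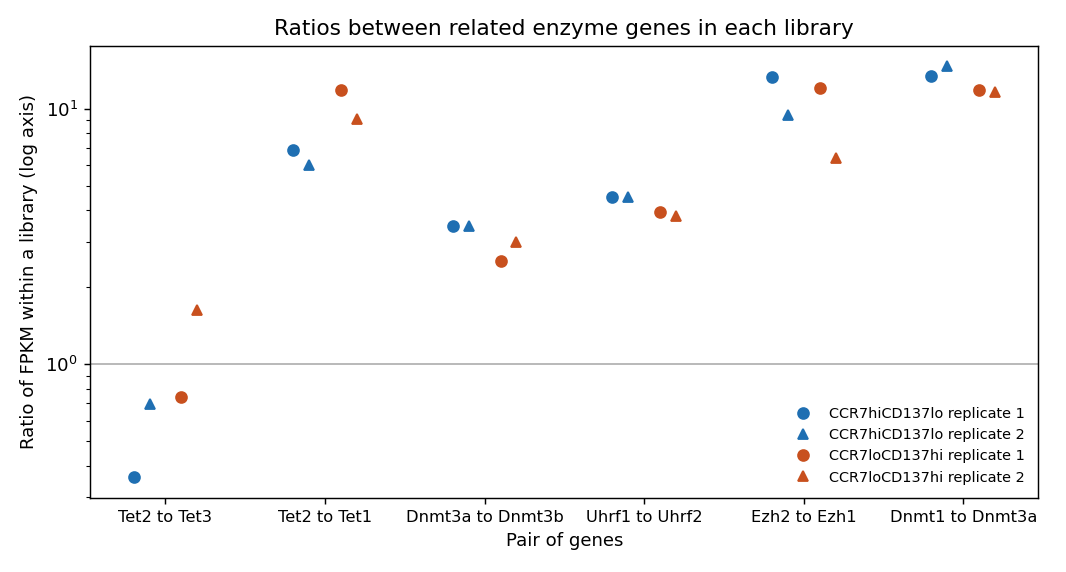
Ratio of FPKM of 2 genes within each library (log axis; the grey line marks a ratio of 1), with colours and symbols by population and replicate. The Tet2 to Tet3 ratio is above 1 in CCR7loCD137hi replicate 2 alone (1.63). Of the 6 ratios computed whose groups overlapped, only Ezh2 to Ezh1 is shown.

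Genes of the small molecules that these enzymes use were measured beside them. TET enzymes and the KDM6 demethylases consume alpha-ketoglutarate, and all methyltransferases consume S-adenosylmethionine. Of 8 genes for alpha-ketoglutarate sources 6 had a fitted value above 0 (median 0.149, 0 calls), and the most expressed, Got2 and Idh3b, were at 86.4 and 87.2 against 95.01 and 84.4 FPKM and at 72.0 and 60.6 against 68.2 and 66.1 FPKM. Of 7 genes of the S-adenosylmethionine cycle 2 were fitted above 0 and 5 below, with a median of -0.096 and 0 calls. Mat2a, which encodes the synthase subunit of S-adenosylmethionine, was at 115.7 and 77.1 against 79.9 and 39.4 FPKM. It was lower in CCR7loCD137hi within each number and lower in the library numbered 2 within each population (limma adjusted p = 0.718). Ahcy, which clears the product of methylation, was at 148.3 and 161.6 against 181.5 and 178.1 FPKM and did not overlap (limma adjusted p = 0.718).

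**Figure D3:**
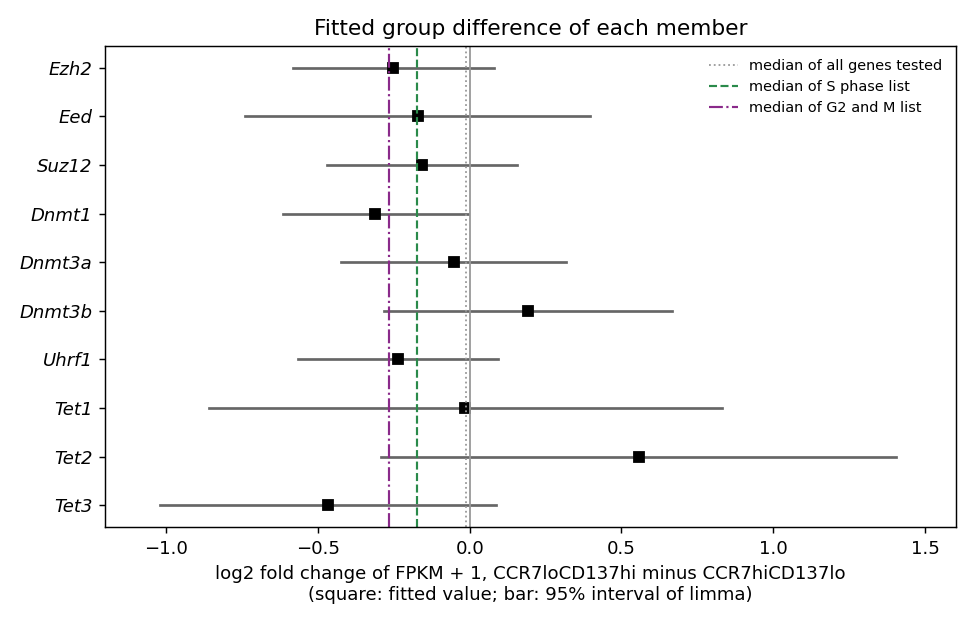
Fitted log2 fold change of FPKM + 1 (squares, CCR7loCD137hi minus CCR7hiCD137lo) with the 95% interval of limma (bars) for the 10 members, and vertical lines at the median of all genes, of the S phase list and of the G2 and M list. The interval of Dnmt1 alone ends below 0 (-0.0052), before any adjustment over genes, and Ezh2, Uhrf1, Suz12 and Eed lie near the cell cycle medians of -0.17 and -0.26.

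No gene of the cell cycle lists was called, and most were fitted below 0, as Ezh2, Suz12, Dnmt1 and Uhrf1 were. All 22 genes of G2 and M phase were fitted below 0 (median -0.26, 0 calls, 16 with groups that did not overlap), and 23 of 26 genes of S phase and replication (median -0.17, 0 calls, 13 lower without overlap), where 52.1% of all genes were fitted below 0 and 21.5% were lower without overlap. With a library left out the S phase median ran from -0.31 without CCR7loCD137hi replicate 1 to -0.08 without CCR7loCD137hi replicate 2. Top2a, a topoisomerase of dividing cells, was at 313.0 and 327.2 FPKM among CCR7hiCD137lo cells, against 190.5 and 194.9 FPKM among CCR7loCD137hi cells (limma adjusted p = 0.296). Birc5, a mitotic gene, was at 226.9 and 212.9 against 208.1 and 172.5 FPKM. Mki67, a proliferation marker, was at 130.1 and 151.8 against 106.8 and 128.3 FPKM. Pcna, the replication clamp, was at 415.2 and 395.6 against 399.1 and 336.2 FPKM, and Rrm2, a nucleotide reductase subunit, at 180.8 and 189.6 against 172.4 and 140.5 FPKM. Each member was also set against the median log2 level of a list within the same library, a comparison chosen after the values were seen. That median level differed between populations by -0.108 for S phase and -0.293 for G2 and M phase. It is not the median fold change given above. The log2 differences between populations relative to G2 and M phase were -0.017 for Dnmt1, 0.041 for Ezh2, 0.057 for Uhrf1 and 0.137 for Suz12. Relative to S phase they were -0.20, -0.14, -0.13 and -0.049, and among these 4 the groups then overlapped for Dnmt1, Ezh2 and Suz12 and did not for Uhrf1. Relative to G2 and M phase Dnmt1 was lower without overlap, by a narrow margin (0.668 and 0.642 against 0.635 and 0.640), Suz12 was higher without overlap, and Ezh2 and Uhrf1 overlapped. Tet3 remained lower relative to S phase without overlap (-0.36), and overlapped relative to G2 and M phase (-0.17). Tet2 was higher relative to both, by 0.66 with overlap and by 0.85 without. Dnmt3b was higher without overlap relative to both, by 0.30 for S phase and 0.49 for G2 and M phase. Dnmt3a was higher without overlap relative to G2 and M phase (0.24) and overlapped relative to S phase (0.055). The part of the cell cycle genes in the members' differences was not tested beyond these values.

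Within replicate numbers, 6 members were lower in CCR7loCD137hi in both (35.9% of all genes were) and 2, Tet2 and Dnmt3b, higher in both (33.0% of genes). Tet1 and Dnmt3a were lower among libraries numbered 1 and higher among those numbered 2. The members differed in how far the number mattered. Between the numbers, replicate 2 minus replicate 1, Tet2 differed by 0.43 in CCR7hiCD137lo and 0.77 in CCR7loCD137hi, Tet1 by 0.35 and 0.60, and Tet3 by -0.42 and -0.27. For Dnmt1 the same differences were 0.046 and 0.109, smaller than its difference between populations.

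**Figure D4:**
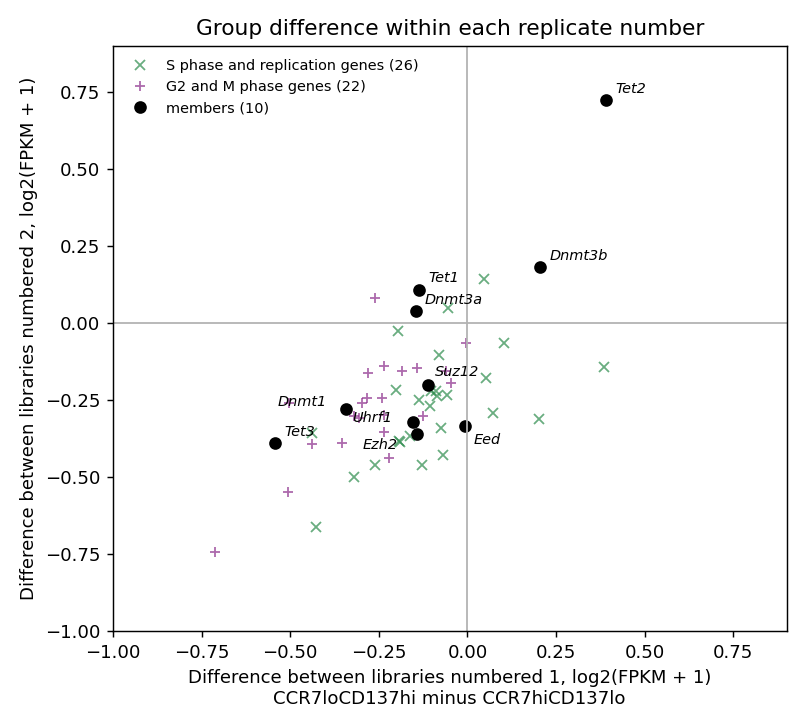
Difference in log2(FPKM + 1), CCR7loCD137hi minus CCR7hiCD137lo, between the libraries numbered 1 (x axis) and numbered 2 (y axis), for the members (black) and for genes of S phase (green) and of G2 and M phase (purple). The lower left region holds 6 members among the cell cycle genes, and Tet2 (0.39 and 0.72) lies far from them at the upper right.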

How the data were processed

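Each library has its own table of FPKM values, deposited by the authors, whose columns are, per the file headers, those that Cufflinks writes for genes. The value column carries the library's name and not the word FPKM, so the unit rests on that layout. Libraries were made with a stranded TruSeq mRNA kit, per the labels' protocols. The tools named, per the submitters' processing notes, are Cufflinks 2.0.2, TopHat 1.3.2 and Bowtie 0.12.8, and the build is mm10. The sources used here do not give the annotation, the scaling or whether strand was used. The entry with the highest mean was kept for each of 240 repeated symbols. Log2(FPKM + 1) of the 10496 genes with a mean of at least 1 FPKM was fitted with limma 3.58.1 (R 4.3.3, variance trend, two-sided, 2 residual and 2.54 prior degrees of freedom), after a test on simulated data. Depth was estimated from low values: 74.1% to 75.4% of ratios under 0.3 FPKM lay within 0.002 (natural log) of a whole-read ratio. The depths and fragment numbers assume scaling to each library's total of fragments, which was not checked. Absolute depth also assumes fragments of 200 nt and is approximate. Starts were raised by 1. Annotation came from GENCODE M21 and promoters from RefSeq; protein sequences were not used here. Members and lists were chosen with earlier results of these data known. All members were named, with Ezh1, Uhrf2, Dnmt3l, Kdm6a, Kdm6b, Mki67, Pcna and marker genes, and in each list up to 4 called genes or otherwise the 2 most expressed; other names are said to be chosen after their values were seen. Alternatives were another pseudocount, other filters, 3 scalings, no trend, a replicate block and leaving out each library.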

Additional observations from a re-analysis of the deposited data

How the results depend on the processing

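No member was called in any of the 12 alternatives (118 fits of single members, lowest adjusted p 0.133). The fitted signs turned in 4 of them: Eed without CCR7loCD137hi replicate 2 (0.087), Dnmt3a without CCR7loCD137hi replicate 1 (0.0059), and Tet1 without CCR7hiCD137lo replicate 2 (0.163) or CCR7loCD137hi replicate 1 (0.286). With a library left out, the values ran from -0.43 to 0.087 for Eed, -0.11 to 0.0059 for Dnmt3a and -0.31 to 0.286 for Tet1, and without a change of sign from -0.34 to -0.17 for Ezh2 (nearest 0 without CCR7hiCD137lo replicate 2), -0.21 to -0.10 for Suz12 (the same library) and -0.33 to -0.15 for Uhrf1 (without CCR7loCD137hi replicate 2). Dnmt3b (0.19) was 0.084 with quantile normalization. No scaling, pseudocount, filter or block turned a member. Over all genes, where 6 were called, there were 1 with no filter, 2 with quantile normalization, 3 without short RNA genes and 2 without a trend, and 12 to 30 with a library left out, which leaves 1 library in its group and assumes that it varies like the others. The cause of these shifts was not tested. The replicate block gave 42 calls and 0 members, with unadjusted p-values of 0.0157 for Dnmt1, 0.0125 for Tet2 and 0.00959 for Tet3; same-numbered libraries deviated together across genes (correlation 0.213), but 2 pairs do not establish a pairing. Of members whose groups did not overlap, the count of 5 lower stayed 5 under each filter and scaling and was 5 to 7 with a library left out. The share of all genes, 21.49% in the main fit, was 11.54% with no filter and 23.01% with a minimum of 5 FPKM. It was 24.64% with quantile normalization, 21.72% with median-ratio scaling and 28.29% without short RNA genes. With a library left out it was between 32.15% and 39.51%. The count of 1 higher, where 16.56% of all genes were, became 0 with a minimum of 5 FPKM (15.59% of genes), which removes Dnmt3b and Tet1. It became 2 with median-ratio scaling (17.09%). With a library left out it was 1 to 3, where 23.3% to 37.36% of all genes were higher. Depth limits Tet1 and Dnmt3b most.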
